A study of Mus musculus with 6 samples.

Results

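The microRNAs described here come from the miR-106b-25 cluster (miR-106b, miR-93 and miR-25) and from the miR-106a-363 cluster (miR-106a, miR-18b, miR-20b and miR-363). Both are paralogs of the miR-17-92 cluster. Assays were chosen by name alone, as those whose name on the TaqMan cards is a member's name, alone or with an arm suffix or asterisk. This gave 14 of the 584 microRNA assays on the cards, 10 with mouse names and 4 with rat names. Of these, 7 gave a threshold cycle (Ct) below 35 in 3 samples or more and were tested, as 306 of the 584 assays were. The other 7 are given below by what was measured.

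The samples were cell bodies of 2 classes of cortical projection neuron, purified from mice at postnatal day 1. There were 3 samples of callosal projection neurons (CPN), which join the hemispheres and serve as the control in the labels, and 3 of subcerebral projection neurons (SCPN), which send axons below the cortex. Strain, genotype, sex, the sorting method and the litters of origin are not given in the sources used, so the p-values cover no more than the spread among these samples, and that may be technical. A well of a card is 1 quantitative PCR, and a lower Ct means more template.

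Members of these clusters fall into families by the seed, bases 2 to 8 counted from the 5′ end, which sets most of the pairing with a target. The miR-17 seed family is known for repressing the cell cycle inhibitor Cdkn1a and promoting proliferation of progenitors, and the miR-25/miR-92 family for repressing the pro-apoptotic gene Bcl2l11. In the mouse, the miR-106b-25 cluster lies in an intron of Mcm7, which encodes a subunit of the replicative helicase. The miR-106a-363 cluster lies on the X chromosome, with no protein-coding gene around it in the RefSeq table. It also holds second copies of the miR-19b and miR-92a genes, whose assays therefore read both that locus and the miR-17-92 locus.

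The mature sequences show which members could be hard to tell apart and which share targets. They are those listed in RefSeq (GRCm38.p6) under the arm that each older name stands for, and the probe sequences of the assays were not used here. Capitals mark the seed.
miR-106b: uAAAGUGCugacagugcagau
miR-93: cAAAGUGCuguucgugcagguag
miR-106a: cAAAGUGCuaacagugcagguag
miR-20b: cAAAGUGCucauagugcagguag
miR-17: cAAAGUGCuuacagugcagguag
miR-20a: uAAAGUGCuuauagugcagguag
miR-18b: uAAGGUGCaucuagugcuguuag
miR-18a: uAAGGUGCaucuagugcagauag
miR-25: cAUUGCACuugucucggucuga
miR-363: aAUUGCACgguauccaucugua
miR-92a: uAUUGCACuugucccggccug

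The first 6 share the seed of miR-17, the next 2 that of miR-18, and the last 3 that of miR-25. On the minus strand of GRCm38.p6, miR-106b lies at chr5:138165787-138165807, miR-93 at chr5:138165574-138165596 and miR-25 at chr5:138165332-138165353. On the minus strand of the X chromosome, miR-106a lies at chrX:52742541-52742563, miR-18b at chrX:52742381-52742403, miR-20b at chrX:52742159-52742181 and miR-363 at chrX:52741697-52741718. With the paralog's base first and positions counted from the 5′ end, miR-106a differs from miR-17 by U10A alone and shares its last 13 bases. MiR-20b differs from miR-20a by U1C and U10C, also with the last 13 bases shared. MiR-18b differs from miR-18a by A18U and A20U, near the 3′ end, and shares 3 bases at that end. MiR-93 differs from miR-17 at 4 of 23 positions, while miR-25 matches miR-92a at 18 of the 21 compared and miR-363 at 10 of the 21.

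Levels below are Ct turned in sign and set against the mean Ct of the microRNAs detected under Ct 35 in every sample, per sample and card (159 on card A, 65 on card B). A level of 0 is that mean, and a step of 1 is a cycle (a doubling of template if PCR were fully efficient). The mean Ct itself ran from 21.8 to 28.1 on card A, lowest in replicate 1 of each class, and the samples detected 250 to 331 assays. The 6 neuron marker assays, such as miR-124 and miR-9, were under Ct 35 in all samples, with a summed level of 8.15 to 9.77 in CPN and 8.94 to 9.71 in SCPN. Of markers of other cells, 3 of 5 microglia and blood assays, 3 of 4 vascular assays, 1 of 4 muscle assays and 0 of 2 oligodendrocyte assays were under Ct 35 in all samples. The summed muscle level was lower in SCPN with no overlap, at -2.06 to -1.75 in CPN and -3.65 to -2.64 in SCPN. The muscle assays did not agree, however. Of the 2 tested, miR-133a was lower in SCPN (log2 difference -3.67) and miR-206 higher (2.85). The microglia and blood sum was 0.19 to 0.59 in CPN against -0.52 to 0.28 in SCPN, but its assays did not agree either. Of the 4 tested, 1 was lower in SCPN, miR-146a (log2 difference -0.69). The other 3 were higher, miR-155 (0.62), miR-142-3p (0.34) and miR-223 (0.09). The oligodendrocyte sum was -8.75 to -5.51 against -7.76 to -6.41. The vascular sum was 1.69 to 2.47 against 2.23 to 4.53. Whether other cells contributed to the levels below was not tested. In such bulk samples, fewer cells of a type and less RNA per cell cannot be told apart.

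All 7 tested assays had a lower mean level in SCPN, as did 54.9% of all assays tested, and none of the 7 differences passed after adjustment. The median log2 difference (SCPN minus CPN) was -0.71 over the 4 assays of the miR-106b-25 cluster and -0.65 over the 3 of the miR-106a-363 cluster, against -0.08 over all 306. Limma with Benjamini-Hochberg adjustment called 0 of the 7 and 0 of the 306 (0%). At an unadjusted p below 0.05 there were 0 of the 7 and 25 of the 306 (8.17%). Adjusted p values of the members ran from 0.787 to 0.93. The direction depends on the scale: with the authors' scaling on control RNAs, 5 of the 7 means were higher in SCPN, as given further on. The assays are not independent of each other, since miR-93 and miR-93* come from 1 precursor and 2 assays carry the name of miR-20b. Whether the rat-named assay reads mouse miR-20b was not tested, and without it the median of its cluster was -0.61.

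**Figure D1:**
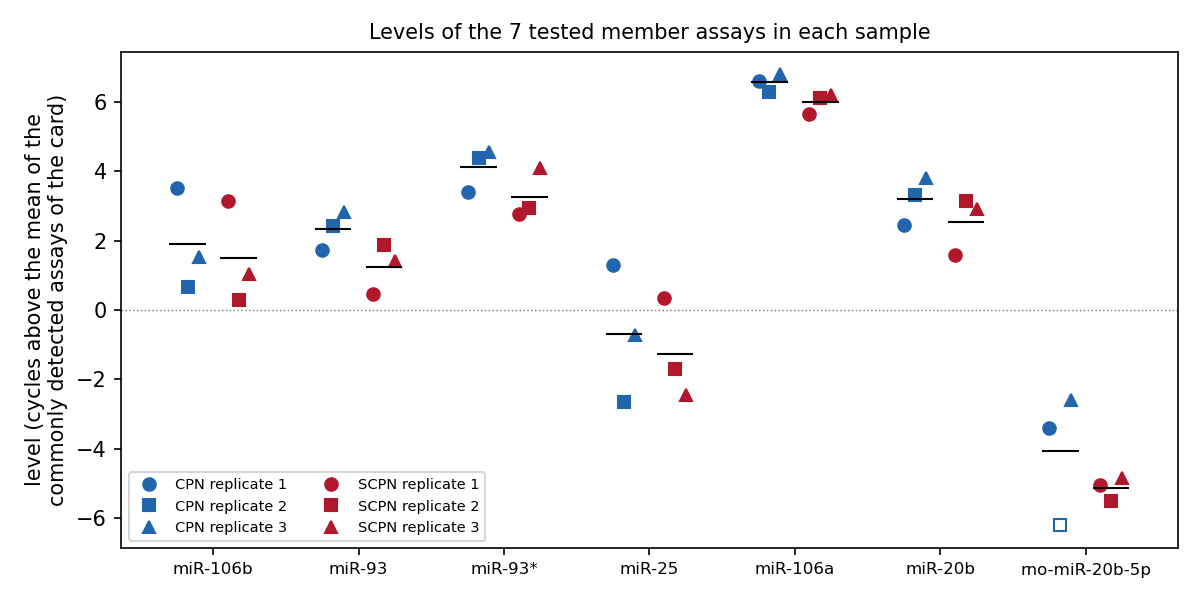
Level of each tested member assay in each sample, in cycles above the mean of the assays detected in every sample on its card (vertical axis). Blue marks are CPN, red marks SCPN, the shape gives the replicate number, horizontal bars are group means, and the open square is a value at the Ct limit. MiR-106a is the only assay in which the groups do not overlap, and miR-106b and miR-25 spread the most between replicates on card A.

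MiR-93, a member of the miR-17 seed family, had the largest difference among the 7. In CPN replicates 1, 2 and 3 its level was 1.72, 2.43 and 2.82, and in SCPN replicates 1, 2 and 3 it was 0.47, 1.88 and 1.41. The groups overlapped only in that SCPN replicate 2 lay above CPN replicate 1. The means were 2.32 ± 0.56 and 1.25 ± 0.72 (SD, n = 3 each). The log2 difference was -1.07 ± 0.64 (SE, limma adjusted p 0.787), a 2.10-fold lower mean in SCPN, and its 95% interval ran from -2.56 to 0.42.

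MiR-93* is the other arm of the same hairpin. The hairpin is shown to place the 2 assays, with both mature arms in capitals, miR-93 first, at chr5:138165523-138165610 on the minus strand of GRCm38.p6.
miR-93 hairpin: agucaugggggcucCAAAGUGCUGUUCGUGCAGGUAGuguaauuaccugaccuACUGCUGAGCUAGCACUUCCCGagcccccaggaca

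The CPN samples stood at 3.39, 4.39 and 4.57 for miR-93*, and the SCPN samples at 2.77, 2.94 and 4.08. SCPN replicate 3 lay within the CPN range and the other SCPN samples lay below it. The CPN mean was 4.12 ± 0.63 and the SCPN mean 3.26 ± 0.71 (SD, n = 3 each), and the log2 difference was -0.85 ± 0.65 (SE, limma adjusted p 0.796). Both arms, measured on different cards, were thus lower on average in SCPN by close amounts on this scale. With the authors' scaling on control RNAs the log2 differences were 0.17 for miR-93 and -0.47 for miR-93*. In Ct, miR-93 minus miR-93* was 0.01, 1.23 and 0.02 cycles for the CPN samples and 0.49, 0.12 and 1.49 for the SCPN samples. This gap moved by up to 1.48 cycles among samples, with no order between the groups. Because the arms sit on different cards, it also holds the offset between the cards, which varied by sample. For CPN replicate 1 the mean Ct of card A stood at 22.6 and that of card B at 24.3. For CPN replicate 2 they stood at 28.1 and 28.8. The movement is therefore not assigned to the arms. The asterisk of miR-93* thus goes with no late Ct here, with both arms read at 20.8 to 25.8 cycles. Levels of different assays are not ranked, since their PCR efficiencies are not known here.

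MiR-106b, the first member of the Mcm7 cluster, varied more between replicates than between groups. The CPN levels were 3.53, 0.67 and 1.54, and the SCPN levels 3.14, 0.29 and 1.04. Replicate 1 was high and replicate 2 low in both groups. The means were 1.91 ± 1.46 and 1.49 ± 1.48 (SD, n = 3 each), and the log2 difference was -0.42 ± 1.02 (SE, limma adjusted p 0.93). Between same-numbered samples the differences were -0.38, -0.38 and -0.50, far smaller than the spread between numbers. Without CPN replicate 1 the difference was 0.39 and without SCPN replicate 2 it was 0.19.

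MiR-25, which has the seed of miR-92a, varied likewise. The CPN levels were 1.31, -2.66 and -0.72, and the SCPN levels 0.35, -1.69 and -2.44. The groups overlapped fully, with the lowest and the highest value both in CPN. The means were -0.69 ± 1.99 and -1.26 ± 1.44 (SD, n = 3 each), and the log2 difference was -0.57 ± 1.16 (SE, limma adjusted p 0.927). Leaving out CPN replicate 1 made it 0.43 and leaving out SCPN replicate 3 made it 0.02, and the same-numbered pairs differed by -0.96, 0.97 and -1.72.

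The remaining assay of the cluster, for miR-106b*, the minor strand by name, gave a Ct in 2 samples. These were 35.4 in CPN replicate 1 (mean of wells at 34.9 and 35.8) and 35.2 in CPN replicate 3 (from 1 of 2 wells), both above the limit. The rat-named assay for miR-25* gave no Ct in any sample. Neither assay had a mean Ct below 35 in any sample, so neither was tested for a difference between the groups.

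In the X-linked cluster, miR-106a had the closest replicates of the 7 assays. The CPN levels were 6.61, 6.29 and 6.80, and the SCPN levels 5.64, 6.11 and 6.20. Every SCPN sample lay below every CPN sample, by 0.08 cycles at the nearest. Such a complete separation with SCPN lower was found in 1 of the 7 members and in 6.21% of the 306 assays. The means were 6.57 ± 0.26 and 5.99 ± 0.30 (SD, n = 3 each), which gives -0.58 ± 0.54 on the log2 scale (SE, limma adjusted p 0.81, 95% interval -1.83 to 0.67). The SE exceeds the replicate spread of this assay because limma draws each assay's variance towards that of all assays.

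MiR-20b, of the same seed family, stood at 2.44, 3.33 and 3.82 in CPN and at 1.59, 3.14 and 2.92 in SCPN. SCPN replicate 1 was the lowest sample and the others lay within the CPN range. The means were 3.20 ± 0.70 and 2.55 ± 0.84 (SD, n = 3 each), and the log2 difference was -0.65 ± 0.69 (SE, limma adjusted p 0.83). Leaving out SCPN replicate 1 made it -0.16 and leaving out CPN replicate 1 made it -1.02.

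A rat-named assay for miR-20b-5p on card B gave a different picture of the same name. Its mean Ct was 27.7, 35.9 and 29.05 for the CPN samples and 28.6, 33.6 and 33.2 for the SCPN samples, which is 7.50 to 11.2 cycles later than the mouse-named assay of card A. Its 2 wells stood apart in CPN replicate 2 (34.2 and 37.6) and in SCPN replicate 2 (31.6 and 35.6). With CPN replicate 2 set to the limit, the levels were -3.41, -6.20 and -2.58 in CPN and -5.04, -5.51 and -4.82 in SCPN. The CPN samples lay on both sides of the SCPN samples. The log2 difference was -1.06 ± 0.96 (SE, limma adjusted p 0.81), and leaving out CPN replicate 2 made it -2.21, or CPN replicate 3, -0.32. The rat sequence that this assay is named for was not used here.

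MiR-363, which carries the miR-25 seed at the far end of the X-linked cluster, was read only in the samples with the earliest mean Ct. It gave a Ct of 34.1 in CPN replicate 1 and 34.2 in SCPN replicate 1, at levels of -11.5 and -12.4. In the other 4 samples the limit of Ct 35 lay at levels between -10.3 and -6.93, so a level like those could not have been seen there. MiR-18b gave no Ct in any sample, nor did miR-20b* and the rat-named assays for miR-20b-3p and miR-363*. For miR-18b the limit in SCPN replicate 1 lay at a level of -13.2, while miR-18a, with the same seed, gave a Ct of 23.1 to 30.5 in all 6 samples. The products of the X-linked cluster thus ranged from miR-106a, read at 16.0 to 21.8 cycles, to miR-18b with no Ct, a description of these assays rather than of relative abundance.

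**Figure D2:**
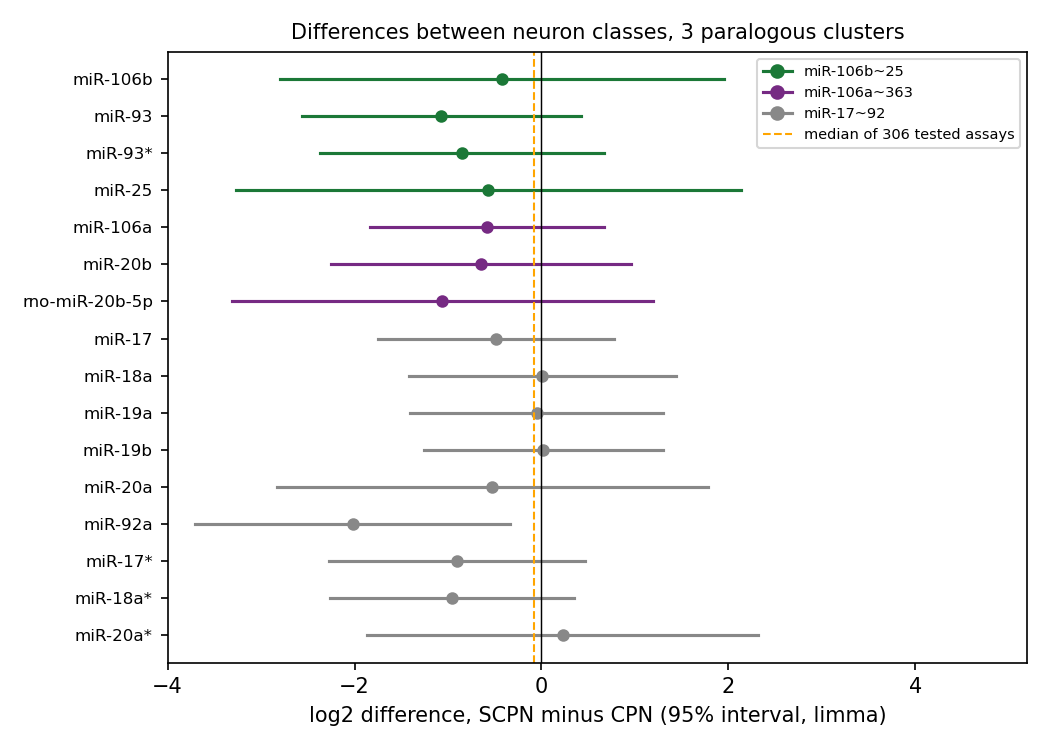
Log2 difference between the classes (SCPN minus CPN, horizontal axis) with its 95% interval from limma for the 7 tested member assays and the 9 tested assays of the miR-17-92 cluster. The dashed line is the median of the 306 assays tested, -0.08, and the intervals of all 7 members cross 0.

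Across samples the members split by how steeply their Ct followed the sample's mean Ct. On card A, whose mean Ct spanned 6.29 cycles, miR-25 spanned 9.45 cycles and miR-106b 8.77, while miR-106a spanned 5.81, miR-93 4.94 and miR-20b 4.59. The fitted slope on the mean Ct was 1.57 for miR-25 and 1.48 for miR-106b, above the upper quartile of 1.21 over the 159 commonly detected assays of the card. They ranked 156 and 153 of these 159. The slope was 0.98 for miR-106a, 0.84 for miR-93 and 0.80 for miR-20b, and 0.82 for miR-93* on card B. The split ran through the Mcm7 cluster, since miR-106b and miR-25 were steep and miR-93 was not. It also ran through the miR-17 seed family, in which miR-20a of the miR-17-92 cluster had a slope of 1.46 and miR-17 of 0.97.

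**Figure D3:**
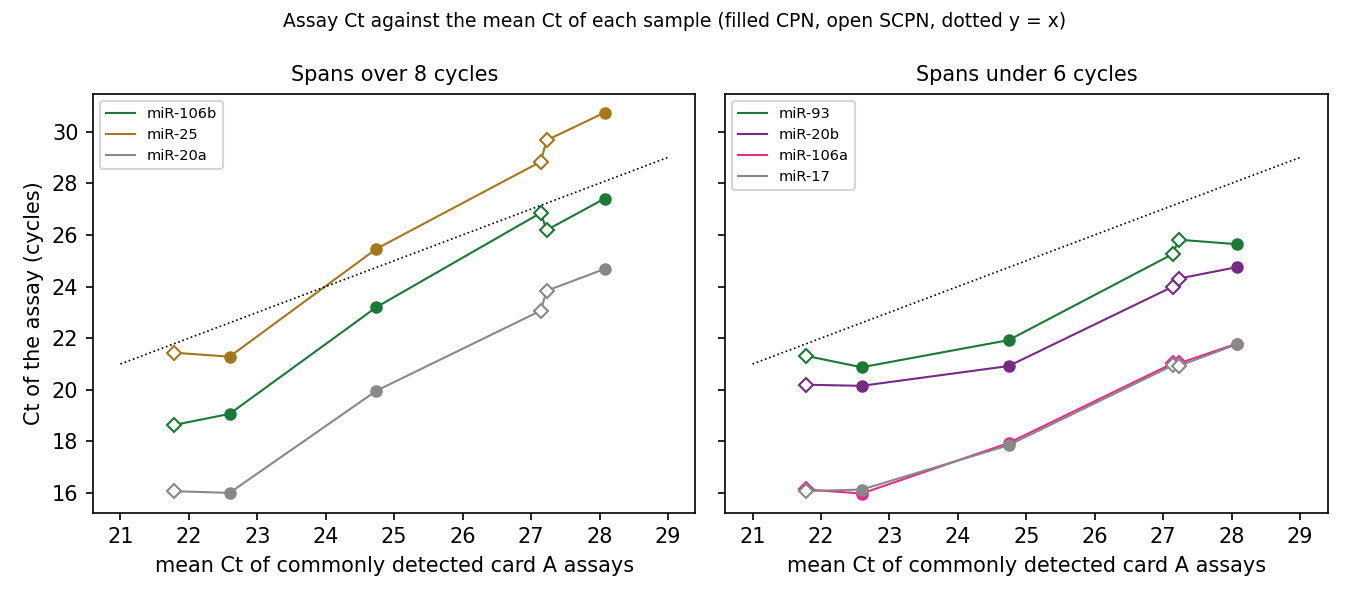
Ct of each assay (vertical axis, cycles) against the mean Ct of the 159 commonly detected card A assays of the same sample (horizontal axis, cycles), with CPN filled and SCPN open and the dotted line at equality. Lines for miR-25, miR-106b and miR-20a rise more steeply than those for miR-93, miR-20b, miR-106a and miR-17, and the last 2 lie on each other.

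A steep assay stays high on the scaled level wherever the mean Ct is early. For miR-106b and miR-25 the highest value of each group was in replicate 1, the sample of its group with the earliest mean Ct. With the mean Ct of each sample as a covariate, the smallest adjusted p of the members was 0.326, and again 0 of the 7 passed. These slopes describe 6 samples that share their RNA and cards, and no cause was tested.

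Pairs of assays were then set against each other within each sample, which removes the scaling on card A. MiR-106a and miR-17, which differ by 1 base, gave nearly the same Ct throughout: miR-106a minus miR-17 was -0.15, 0.03 and 0.08 cycles in CPN and 0.06, 0.08 and 0.10 in SCPN. The SD of this gap over the 6 samples, 0.09 cycles, was the smallest of all 12561 pairs of commonly detected card A assays, whose median was 1.32. The 2 assays cannot be treated as separate evidence, since it is not known from these data how far each reads the other's template. Accordingly miR-17 differed by -0.49 ± 0.54 (log2, SE), beside -0.58 for miR-106a.

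MiR-20b and miR-20a, which differ at 2 bases, did not run together. MiR-20b minus miR-20a was 4.15, 0.07 and 0.96 cycles in CPN and 4.12, 0.93 and 0.47 in SCPN. The gap was wide in replicate 1 of both groups and under 1 cycle in the other 4 samples. Its CPN mean was 1.72 ± 2.14 and its SCPN mean 1.84 ± 1.99 (SD, n = 3 each), which differed by far less than the replicate spread. MiR-20b ran closer to its cluster mate miR-106a than to miR-20a. MiR-106a minus miR-20b was between -4.17 and -2.96 cycles with an SD of 0.56, and 6.23% of card A pairs had a smaller SD. The set list left out miR-20b with miR-93 and with miR-17, so miR-106a is not shown to be its closest partner. MiR-20b was read at 20.2, 24.7 and 20.9 cycles in CPN and 20.2, 24.0 and 24.3 in SCPN. MiR-93 was read somewhat later in every sample, at 20.9, 25.6 and 21.9 in CPN and 21.3, 25.3 and 25.8 in SCPN.

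Within the Mcm7 cluster, miR-106b and miR-25 kept close, with a gap between -3.48 and -1.98 cycles and an SD of 0.63 (8.57% of card A pairs had a smaller SD). MiR-93 did not follow them. MiR-25 minus miR-93 was 0.41, 5.10 and 3.54 cycles in CPN and 0.12, 3.57 and 3.85 in SCPN, an SD of 2.02 (81.2% smaller). MiR-106b minus miR-93 ranged from -2.68 to 1.76 cycles (77.3% smaller). Among the listed pairs, miR-106b ran instead with miR-20a, at an SD of 0.52 (4.79% smaller). MiR-93 ran with miR-17, also at an SD of 0.52 (4.76% smaller), but miR-93 with miR-20b was not on the list. Assays of like slope on the mean Ct keep a steadier gap, so these spreads are not separate evidence from the slopes above. These spreads were not tested against each other.

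**Figure D4:**
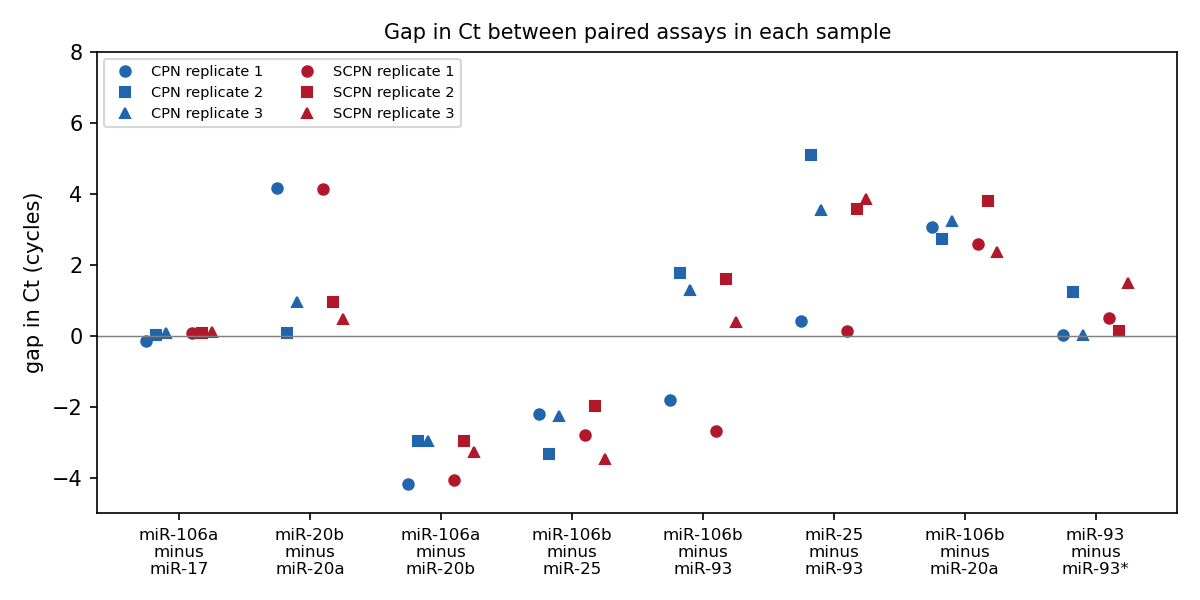
Gap in Ct between paired assays (vertical axis, cycles) in each sample, with CPN in blue, SCPN in red and the replicate number by shape. The gap between miR-106a and miR-17 stays between -0.15 and 0.10 cycles, while that between miR-20b and miR-20a is over 4 cycles in replicate 1 of both groups and under 1 cycle elsewhere.

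Beside the members, the miR-17-92 cluster had 13 assays on the cards, of which 9 were tested. Their median log2 difference was -0.49, with 6 lower and 3 higher in SCPN, and 0 passed after limma adjustment (1 at an unadjusted p below 0.05). Its differences ran from -2.02 for miR-92a to 0.23 for miR-20a*, a wider range than the -1.07 to -0.42 of the members. The assays of miR-92a and miR-19b also read the X-linked locus, so the clusters are not fully separate in this comparison. MiR-92a differed by -2.02 ± 0.72 (SE, limma adjusted p 0.50), against -0.57 for its seed relative miR-25. In Ct, miR-25 minus miR-92a averaged 6.73 ± 1.78 for CPN and 5.28 ± 0.78 for SCPN (SD, n = 3 each), with values of 5.68, 8.78 and 5.73 against 4.47, 5.34 and 6.03 that overlap. MiR-32, another seed relative of miR-25, was under Ct 35 in 3 samples and differed by -0.47 ± 0.55 (SE). The ranges of the clusters overlapped, and the difference between clusters was not tested.

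By pairs of same-numbered samples, 5 of the 7 members (miR-106b, miR-93, miR-93*, miR-106a and miR-20b) were lower in SCPN in all 3 pairs, as were 23.5% of the 306 assays. This count holds on the present scale only. With the authors' scaling the mean differences of miR-106b, miR-93, miR-106a and miR-20b were positive (0.82, 0.17, 0.66 and 0.60). For miR-93 the pairs differed by -1.25, -0.56 and -1.40, for miR-106a by -0.97, -0.17 and -0.60, and for miR-20b by -0.85, -0.18 and -0.90. These 3 assays moved least in the pair numbered 2. For miR-93* the pairs differed by -0.62, -1.45 and -0.48.

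The authors' deposited table gives a ratio of SCPN over CPN for 7 of the member assays, scaled on control RNAs. In the authors' deposited table it is 1.77 for miR-106b, 1.59 for miR-25, 1.58 for miR-106a, 1.51 for miR-20b and 1.13 for miR-93. The same table gives 0.72 for miR-93* and 0.77 as the mean of the 2 rows of the rat-named miR-20b-5p assay. Of the 240 assays with a ratio in the authors' deposited table, 80.8% lie above 1, with a median of 1.72. With that scaling the median log2 difference of the tested assays moved to 1.12 on card A and 0.39 on card B. Both scalings subtract a constant per sample and card, so a member's difference from the median of its card is the same under either by construction. That difference was largest for the rat-named miR-20b-5p assay, at -1.07. It was -0.94 for miR-93, -0.86 for miR-93*, -0.52 for miR-20b, -0.45 for miR-106a, -0.44 for miR-25 and -0.29 for miR-106b. Without CPN replicate 1 it turned to 0.41 for miR-106b and 0.46 for miR-25, without SCPN replicate 2 to 0.29 for miR-106b, and without SCPN replicate 3 to 0.09 for miR-25.

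The assays whose level varied most like a member's over the 6 samples were sought among the 210 commonly detected assays outside the 3 clusters. For miR-93*, the earliest of the miR-106b-25 cluster in mean Ct, they were miR-674* (Pearson r 0.90), miR-30e (0.87) and miR-674 (0.85). For miR-106a they were miR-146a (0.89), miR-28* (0.88) and miR-375 (0.83). These are the highest of many values over 6 samples that share cards and scaling, and they are given as a description.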

How the data were processed

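MicroRNA of 6 samples was measured on rodent TaqMan cards A and B, per the series' design text. The authors deposited raw Ct per well, normalised Ct, and a ratio (relative quantity, RQ, per the file header). The deposited normalised Ct equals the raw Ct minus a constant per sample and card, and the deposited ratio equals 2 raised to the normalised mean of CPN minus that of SCPN in all 280 rows. No threshold setting or preamplification step is given in the sources used here. Samples were grouped by title.

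For each assay, the mean was taken of the wells that gave a Ct. Means of 35 or more, and assays with no Ct, were set to 35. Levels were scaled per sample and card on the assays under 35 in all samples, and assays under 35 in at least 3 samples entered a two-sided limma fit (version 3.58.1, lmFit then eBayes, in R 4.3.3) with p-values adjusted by Benjamini-Hochberg over all 306 and a threshold of 0.05. The fit was also run on simulated data, with added shifts larger than any member difference and a reduced spread. That run therefore does not show whether differences of the members' size could be found here. No read depth exists; precision rests on 3 samples per group and the Ct limit. Deviations of same-numbered samples correlated at 0.55, 0.29 and 0.30, each above 0.1, and the numbers of the titles were taken as pairing the samples. The SE, intervals and p-values above come from fits without this pairing, which enters only the same-numbered differences and the replicate block. For miR-106b the SE was 1.02 without the block and 0.37 with it. CPN replicate 2 correlated at 0.32 with SCPN replicate 3, so numbers 2 and 3 are not told apart by this. All member assays are named, the paralogs were paired by a set list, and the 3 most alike assays by Pearson r. The members, lists and tests were chosen with earlier results of these data known.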

Additional observations from a re-analysis of the deposited data

How the results depend on the processing

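In all 19 alternatives (another Ct limit, scaling, filter, well rule, moderation, weights, covariate, block, or 1 sample left out), 0 of the member assays tested passed; the rat-named miR-20b-5p assay was not tested where a Ct under 35 in all samples was asked. Over all assays the count was 0, except 1 with sample weights. These weights moved miR-106b from -0.42 to -0.80, miR-25 from -0.57 to -1.15 and the rat-named miR-20b-5p assay from -1.06 to -1.63, with adjusted p of 0.612, 0.532 and 0.377. With scaling on control assays the differences became 0.71 for miR-106a, 0.87 for miR-106b, 0.64 for miR-20b, 0.72 for miR-25 and 0.22 for miR-93, and the cluster medians 0.47 for miR-106b-25 and 0.64 for miR-106a-363. With the deposited scaling the same values were 0.66, 0.82, 0.60, 0.67 and 0.17, and 0.42 and 0.60. MiR-93* and the rat-named miR-20b-5p assay stayed lower in SCPN, at -0.35 and -0.56 with control assays and -0.47 and -0.68 with the deposited scaling. These scalings move all assays of a card together. With the replicate block the count of calls was again 0, and the smallest unadjusted p of the members was 0.0496, for miR-93 at the same difference of -1.07 (adjusted p 0.298), so the block changed no call.

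Leaving out 1 sample gave ranges of -1.25 to 0.39 for miR-106b, -1.62 to 0.43 for miR-25, -1.37 to -0.68 for miR-93, -1.27 to -0.61 for miR-93*, -0.78 to -0.41 for miR-106a, -1.02 to -0.16 for miR-20b and -2.21 to -0.32 for the rat-named miR-20b-5p assay. The cluster medians ran from -1.09 to -0.41 (miR-106b-25) and from -0.90 to -0.33 (miR-106a-363), and the count stayed 0. The cause of the turned signs of miR-106b and miR-25 was not tested. With all samples the intervals of all 7 tested members held 0, and the Ct limit left the other 7 assays without a test.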
